A study of Drosophila melanogaster with 3 samples.

Results

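The 26S proteasome is the large protease that degrades proteins tagged with ubiquitin, and the genes of its subunits are described here through the binding of E(bx) at their promoters in fruit fly embryos. E(bx), or NURF301, is the large scaffold subunit of NURF, a remodelling complex that slides nucleosomes along DNA. The members were the genes whose symbol in the dm6 gene models is Prosalpha, Prosbeta, Rpn or Rpt followed by a number alone, which gave 32 of 13945 protein-coding genes on the chromosome arms. A further 16 genes carry such a symbol with a T or R added, and these paralogs, several of them known to be expressed in the testis, were kept apart. The rule uses symbols alone and no measured value, but the group of genes was chosen with results of these data known.

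Chromatin was taken from whole embryos of both sexes aged 0 to 16 h, from 1 transgenic line, E(bx)-GFP, in which the C-terminal end of E(bx) is fused to GFP (green fluorescent protein) and stably expressed. All samples carry this transgene, and no untagged embryos were analysed here. The precipitating antibody is described as directed against the fluorescent protein, although the antibody field names E(bx). There were 3 biological replicates in 1 group and no second group, so results are counts, levels and positions without a test between conditions. The values used are the submitters' peak lists, called with a control that was not analysed here; the sequencing depth is unknown. Each value averages over all cells of the embryo, so strong binding in few cells and weak binding in many cannot be told apart.

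The proteasome consists of a barrel, the 20S core, capped by the 19S regulatory particle. The core stacks rings of alpha subunits, which form the gate, and rings of beta subunits, of which Prosbeta1, Prosbeta2 and Prosbeta5 carry the caspase-like, trypsin-like and chymotrypsin-like protease activities. In the cap, the Rpt subunits are ATPases that unfold the substrate and feed it into the core, and the Rpn subunits recognise ubiquitin, remove it or hold the cap together. All embryonic cells use the complex, and its genes are textbook housekeeping genes.

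Tagged E(bx) was found at nearly all of these promoters. A promoter peak, meaning a peak of the reproducible set (the optimal IDR set, where IDR is the irreproducible discovery rate; 9708 peaks) whose summit lay no more than 500 bp from any start site (TSS) in the gene models, was present at 31 of 32 subunit genes (96.9%), at 3 of 16 paralogs (18.8%) and at 50.3% of all protein-coding genes. The exception among the subunits was Prosalpha1. The members were chosen with results of these data known, so the counts are set beside all genes as a description and not tested. The strongest promoter peak per gene had a median signal value of 1302 over the 31 genes (interquartile range 869 to 1477), compared with 834 (521 to 1214) over all 7018 protein-coding genes with such a peak. The signal value is a score of the submitters' peak caller whose scale is not stated, and it is used here to describe and rank peaks. In the lists called on single libraries, the ratio of the medians, subunit genes over all protein-coding genes with a promoter peak, took the values 1.66, 1.57 and 1.28 for replicates 1 to 3 (mean 1.5 ± 0.200, SD, n = 3). Of the 31 genes, 23 lay above the genome's median and 8 below it, namely Prosalpha4, Prosbeta4, Prosbeta6, Rpt1, Rpt3, Rpn3, Rpn11 and Rpn12.

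**Figure D1:**
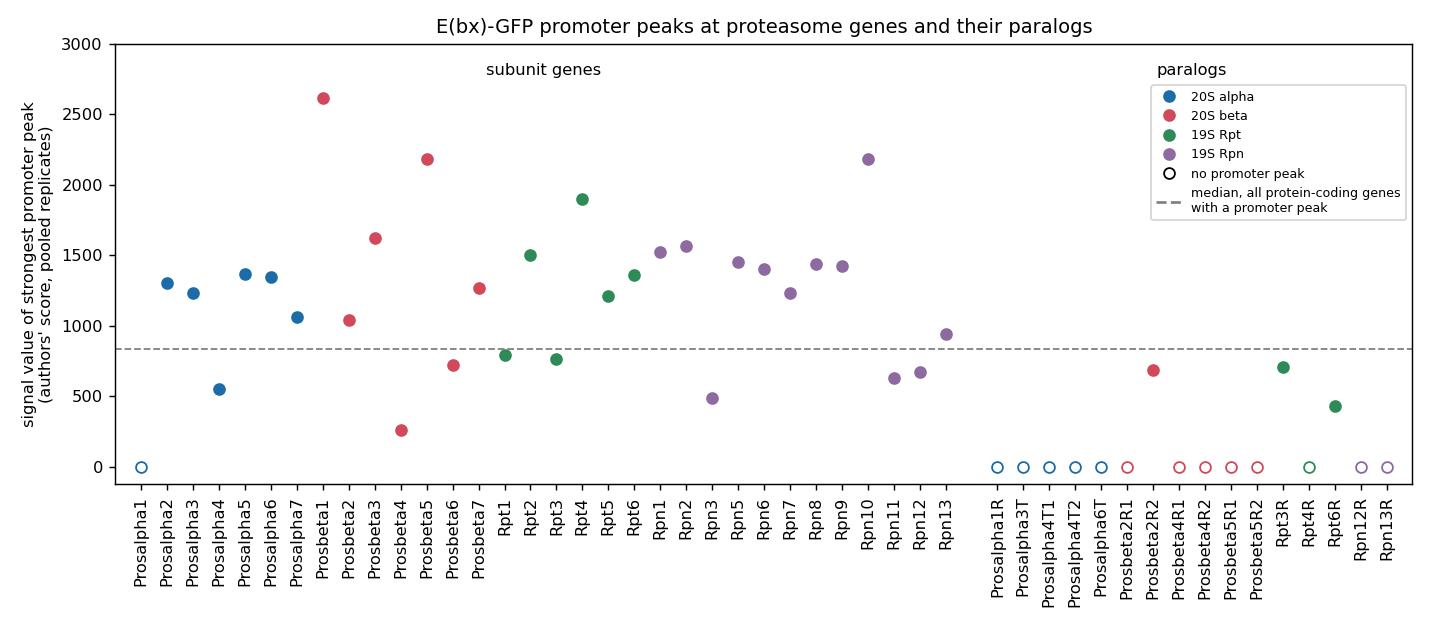
Signal value of the strongest promoter peak (vertical axis, submitters' score in the pooled replicates) at each of 32 proteasome subunit genes on the left and 16 paralogs on the right, coloured by subunit class. Open circles at 0 mark genes without a promoter peak, and the dashed line is the median of 834 over protein-coding genes with one; 1 subunit gene and 13 paralogs are open.

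The sequence just before the start site is shown for the strongest peak of each subunit class and for the weakest peak of all, choosing among genes on the arms 2L, 3L, 3R and X, to let the reader see what these promoters look like. Each line gives up to 120 bases of the Release 6 genome that end 1 base before the gene's first start site, on the gene's strand, stopping at any annotated exon; capitals mark matches, on either strand, to the motifs named further on.
Rpn10 (chr3L:21536880-21536999, plus strand, signal 2181): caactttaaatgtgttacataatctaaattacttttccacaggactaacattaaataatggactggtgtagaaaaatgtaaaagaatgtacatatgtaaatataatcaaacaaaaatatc
Rpt4 (chrX:6291246-6291302, minus strand, signal 1898): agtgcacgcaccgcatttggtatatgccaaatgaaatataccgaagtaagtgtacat
Prosbeta3 (chr3R:9006227-9006346, minus strand, signal 1622): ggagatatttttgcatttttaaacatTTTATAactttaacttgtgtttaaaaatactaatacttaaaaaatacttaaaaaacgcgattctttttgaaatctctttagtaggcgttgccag
Prosalpha6 (chr2L:10221231-10221350, plus strand, signal 1348): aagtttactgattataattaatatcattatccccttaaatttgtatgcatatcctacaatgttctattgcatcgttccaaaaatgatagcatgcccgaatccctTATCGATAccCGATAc
Prosbeta4 (chr2L:16732134-16732253, minus strand, signal 257): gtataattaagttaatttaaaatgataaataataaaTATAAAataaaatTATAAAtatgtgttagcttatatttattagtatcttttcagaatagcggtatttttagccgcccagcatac
The segments had a GC content of 24.2% at Rpn10, 40.4% at Rpt4, 25% at Prosbeta3, 33.3% at Prosalpha6 and 20.8% at Prosbeta4. In a longer window, from 250 bp before to 50 bp after the gene start, the median over all protein-coding genes was 37.9%. Rpt4 lay above that value and the others below it. At Rpt4 only 57 bases separate the gene from mldr on the other strand, and the summit lies inside them. At Prosalpha6 the summit is base 65 of the segment. At Prosbeta3 it lies further upstream, at Prosbeta4 still further, and at Rpn10 it falls downstream of the segment, 32 bp before the gene's later start site.

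The beta ring held the highest and the lowest peak of the whole complex. Prosbeta1 (FBgn0010590), the caspase-like subunit, had signal values of 906, 1075 and 684 in replicates 1, 2 and 3, ranking 52, 50 and 155 in their lists. In the reproducible set it had 2613 and ranked 53 of 9708. Values given for the pool, here and below, are those of the reproducible set. The Prosbeta1 peak was among the strongest peaks of every library. Prosbeta5 (FBgn0029134), the chymotrypsin-like subunit, had 702, 805 and 720 in the replicates and 2181 in the pool (rank 137). Prosbeta2 (FBgn0023174), the trypsin-like subunit, reached 314, 356 and 354, with 1044 in the pool (rank 1937). The 3 catalytic subunits therefore spanned ranks 53 to 1937.

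Among the beta subunits without protease activity, Prosbeta3 had 457, 546 and 633 in replicates 1, 2 and 3 and 1622 in the pool (rank 543). Prosbeta7 had 1269 in the pool and Prosbeta6 723. Prosbeta4 (FBgn0032596) was far below the others, with 70.3, 130 and 101 in replicates 1, 2 and 3 and 257 in the pool (rank 7455). That peak, on 2L from 16732418 to 16732683, had its summit 431 bp upstream of Prosbeta4 but 14 bp from the start site of Nubp1 on the opposite strand. A second, weaker peak of 162 (rank 9519) had its summit 175 bp inside Prosbeta4, with no other gene's start site within 500 bp, and was matched in 2 of the 3 libraries' best 9708 peaks. Of the 31 genes, Prosbeta4 had its nearest summit farthest from its own start site, followed by Prosbeta3, whose summit lay at -150 bp.

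In the alpha ring, Prosalpha5 (1367), Prosalpha6 (1348), Prosalpha2 (1302), Prosalpha3 (1233) and Prosalpha7 (1066) lay close together in pooled signal, and Prosalpha4 was lower at 549. Replicates differed at Prosalpha3 (FBgn0261394), with 412, 533 and 257 in replicates 1, 2 and 3 and ranks of 936, 803 and 3967. Replicate 3 stood apart there from the other libraries. At Prosalpha2 replicate 3 ranked best instead, with ranks of 1825, 1079 and 670.

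The 6 ATPase genes of the cap all had a promoter peak. Rpt4 (FBgn0028685) was highest, with 613, 749 and 536 in replicates 1, 2 and 3 and 1898 in the pool (rank 267). Rpt2 (1501), Rpt6 (1364) and Rpt5 (1214) followed, and Rpt1 (795) and Rpt3 (766) were lowest. Rpt1 ranked 2859, 2924 and 3405 in the replicates and Rpt3 3359, 3694 and 3133. Both lay well below Rpt4 in every library.

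Of the 12 Rpn genes, all had a promoter peak. Rpn10 (FBgn0015283), a ubiquitin receptor, was highest with 693, 826 and 664 in replicates 1, 2 and 3 and 2181 in the pool (rank 138). Rpn2 (1569) and Rpn1 (1523), the large scaffold subunits of the base, came next, while Rpn13 (943), also a ubiquitin receptor, was lower. Of the 8 genes of the lid, 5 lay between 1235 and 1453, namely Rpn5, Rpn8, Rpn9, Rpn6 and Rpn7, and Rpn12 (672), Rpn11 (627) and Rpn3 (490) lay lower. Rpn11 (FBgn0028694) encodes the deubiquitinase of the lid; its signal was 142, 158 and 307 in replicates 1, 2 and 3, with ranks of 4684, 5163 and 3069. Rpn3 (FBgn0261396) had 130, 159 and 234, with ranks of 4983, 5149 and 4389. Rpn9 ranked 935, 1500 and 307, again higher in replicate 3 than in the other libraries.

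By class the medians of the pooled signal were 1268 for 6 alpha genes, 1269 for 7 beta genes, 1289 for 6 Rpt genes and 1412 for 12 Rpn genes, and the ranges of the classes overlapped throughout.

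**Figure D2:**
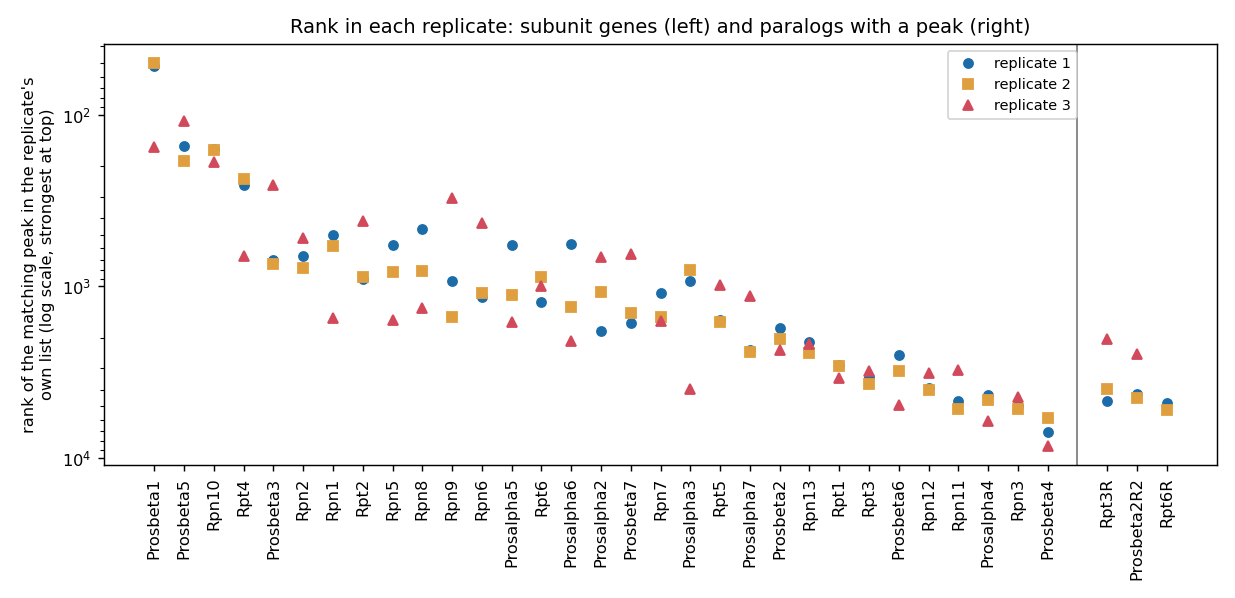
Rank (log axis, strongest at the top) of the peak matched within 200 bp in each replicate's own list, for the 31 subunit genes with a promoter peak, ordered by pooled rank, and for the 3 paralogs with one. Prosbeta1 ranks between 50 and 155 in all libraries and Prosbeta4 between 5858 and 8476; Rpt6R has no point for replicate 3.

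The calls held in each library. Among the 9708 best peaks of replicate 1 a promoter peak was present at 31 of 32 subunit genes and 3 of 16 paralogs (50.3% of protein-coding genes), in replicate 2 likewise at 31 and 3 (50.3%), and in replicate 3 at 31 and 2 (49%). Prosalpha1 was the missing gene each time. The median rank of the subunit genes was 1148, 1317 and 1526 in replicates 1, 2 and 3, against 2910, 2927 and 2705 for all protein-coding genes with a promoter peak. The strongest promoter peak was matched within 200 bp in all 3 libraries at 31 of 31 subunit genes and 2 of 3 paralogs, and at 91.6% of all protein-coding genes with a promoter peak. A neighbouring summit counts as a match too. Among the 4854 strongest reproducible peaks, 29 of 32 subunit genes and 2 of 16 paralogs kept a promoter peak, against 37.8% of protein-coding genes; Prosbeta4 and Rpn3 dropped out. Across the 31 genes, which share their libraries, Spearman's rho of the signal was 0.925 between replicates 1 and 2, 0.714 between 1 and 3, and 0.763 between 2 and 3.

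Summits lay close upstream of the start sites. The median position was 52 bp upstream (-52 bp, interquartile range -85 to -27.5) for the subunit genes and 61 bp upstream (-61 bp, -168 to -25) for all protein-coding genes with a promoter peak. The summit was upstream at 30 genes and downstream at 1, Prosalpha4, by 4 bp; over all protein-coding genes with a promoter peak it was upstream at 6257 and downstream at 737. In the libraries' own lists the median position was -40, -52 and -39 bp for the 3 replicates in turn (mean -43.7 ± 7.23 bp, SD, n = 3). With the summit nearest to the start site in place of the strongest, the median was -32 bp.

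**Figure D3:**
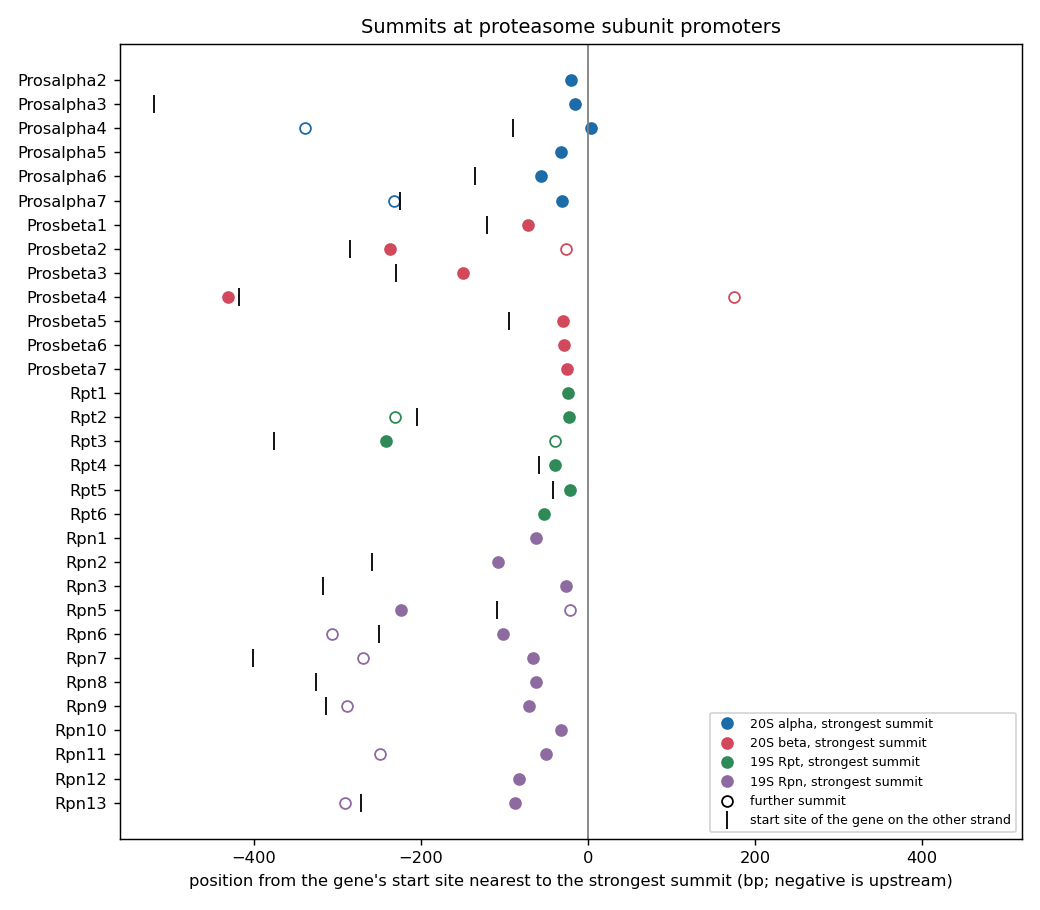
Position of every promoter summit of the 31 subunit genes with a promoter peak, in bp from the gene's own start site nearest to the strongest summit (negative is upstream). Filled circles are the strongest summits, open circles further ones and black ticks the start site of a gene on the other strand; 18 of the 21 strongest summits at genes with such a neighbour lie between the paired start sites.

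Many subunit genes share their promoter region with a neighbour. The opposite strand held the start site of another protein-coding gene within 1000 bp at 22 of 32 subunit genes and 4 of 16 paralogs. It did so at 53 of 86 cytosolic and 58 of 73 mitochondrial ribosomal protein genes, and at 5141 of all 13945 protein-coding genes. Of the subunit genes so placed 21 of 22 had a promoter peak and of the paralogs 2 of 4, where 80.4% of all protein-coding genes with such a neighbour had one. Without such a neighbour the counts were 10 of 10 subunit genes and 1 of 12 paralogs, against 32.8% of the other protein-coding genes. At the 21 subunit genes with a peak the neighbour always started upstream, 42 to 519 bp away.

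At these shared promoters the strongest summit was nearer to the subunit gene's own start site in 13 cases and nearer to the neighbour's in 7 (Prosbeta1, Prosbeta2, Prosbeta3, Prosbeta4, Rpt3, Rpt4 and Rpn5), with Rpt5 at equal distance. The summit at Prosbeta1 was 72 bp from that gene and 49 bp from Rrp42, an exosome gene. The summit at Prosbeta2 was 237 bp from that gene and 48 bp from mRpL39, a mitochondrial ribosomal protein gene, while a second summit of 598 lay 26 bp before Prosbeta2. At such promoters the peak cannot be assigned to either gene. Further neighbours whose start site lay within 500 bp of a summit included Npc1a at Prosalpha6, Iru at Prosbeta3, dgo at Prosbeta5, mldr at Rpt4, Slbp at Rpn2 and Hat1 at Rpn5.

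The 11 subunit genes whose summit had no other gene's start site within 500 bp had a median signal of 1269 (range 627 to 2181), against 675 for the 3073 protein-coding genes of that kind. The 20 with a shared summit had a median of 1375 (257 to 2613), against 957 for 3945 genes.

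Several promoters carried more than 1 summit. This was so at 12 of the 31 subunit genes and at 2307 of all 7018 protein-coding genes with a promoter peak, a similar share. At the subunit genes 10 of the 12 second summits lay 199 to 218 bp from the strongest. Over the whole reproducible set 1206 of 1643 neighbouring summits up to 500 bp apart were spaced by 190 to 220 bp, and none by less than 199 bp. At Rpn5 the summits had values of 1453 (at -224 bp) and 1009 (at -21 bp), and at Rpn7 of 1235 (at -66 bp) and 1034 (at -269 bp).

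Prosalpha1 (FBgn0263121, 2R from 7827303 to 7828678, minus strand) had no promoter peak in the reproducible set, the relaxed pooled list or any replicate's list. The gene lies in a tandem duplication with Prosalpha1R (FBgn0050382, 2R from 7830413 to 7831771). Both genes encode the same protein of 244 residues (100% identity), and in the genome sequence all 1359 aligned bp of the genes and all 983 aligned bp of the 1000 bp upstream of them were identical. The duplicated stretch runs from 7826739 to 7832960 (6222 bp in all), and none of the 5 peak lists had a summit inside it. The nearest reproducible summit was 1283 bp to its left.

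The sources used here do not give how reads matching several places were handled, and the part of repeats in this result was not tested. All 32-base words within 500 bp of the start site of Prosalpha1 and of Prosalpha1R occurred more than once on the arms. Of the 237 protein-coding genes where this held for 90% or more of the words, 0 had a promoter peak in the reproducible set and 5 (2.11%) in the relaxed pooled list. Of the 12819 genes without any repeated word, 52.5% had one in the reproducible set. Of the other subunit genes, 28 of 31 had no repeated word, and the highest share was 10.5%, at Rpn3. Whether E(bx) is present at Prosalpha1 and Prosalpha1R cannot be read from these lists.

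**Figure D4:**
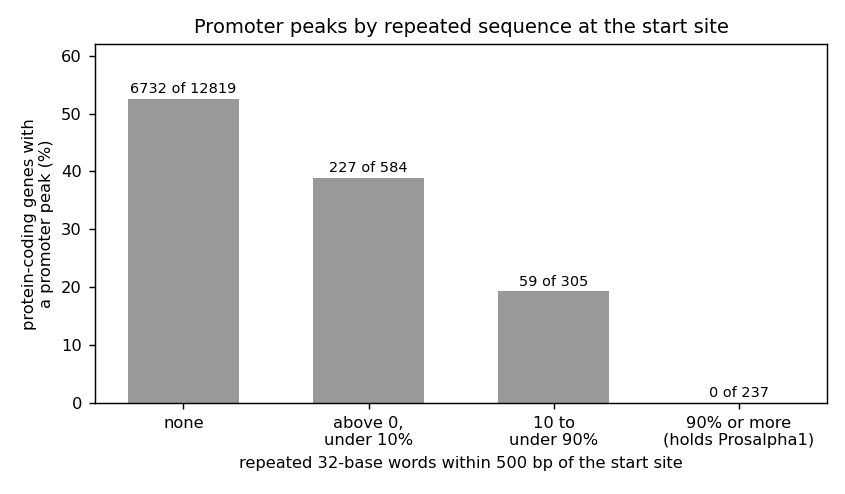
Share of protein-coding genes with a promoter peak (vertical axis, %) by the share of repeated 32-base words within 500 bp of the start site, with the counts above the bars. The rightmost class, 237 genes among them Prosalpha1 and Prosalpha1R, has 0 genes with a promoter peak, against 6732 of 12819 in the class without repeats.

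The paralogs were mostly without a peak. None of the 15 other than Prosalpha1R had a repeated word, and the cause of the missing peaks was not tested. Of the 13 paralogs without a promoter peak, all 13 also lacked one in the relaxed pooled list, and 11 in every replicate's relaxed list as well. Over the 12819 protein-coding genes without any repeated word, 52.5% had a promoter peak in the reproducible set and 63.6% in the relaxed pooled list. Lacking both was therefore common there. For the replicates' relaxed lists no such share was computed. The nearest reproducible summit was 4193 to 47412 bp from the start sites of these 13 paralogs, with a median of 13318 bp. This distance was not computed for other genes without a promoter peak. Without a promoter peak were all 5 alpha paralogs (Prosalpha1R, Prosalpha3T, Prosalpha4T1, Prosalpha4T2 and Prosalpha6T), 5 of 6 beta paralogs (Prosbeta2R1, Prosbeta4R1, Prosbeta4R2, Prosbeta5R1 and Prosbeta5R2), Rpt4R, and both Rpn paralogs (Rpn12R and Rpn13R). In the relaxed lists, which include background, Rpt4R had a signal of 21.4 in replicate 1 and 26 in replicate 2, and Prosbeta5R1 15.9 in replicate 2.

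The 3 paralogs with a promoter peak lay below the median of the subunit genes, and below the median of 834 over all protein-coding genes with a promoter peak. Rpt3R (FBgn0037742) had 144, 217 and 381 in replicates 1, 2 and 3, and in the pool Rpt3 had 766 and Rpt3R 705. The summit of Rpt3R was 75 bp inside the gene and 56 bp from the start site of Alg12. Prosbeta2R2 (FBgn0037296) had 161, 193 and 345 in the replicates, and in the pool Prosbeta2 had 1044 and Prosbeta2R2 687. The summit of Prosbeta2R2 was 103 bp upstream, and 26 bp from the start site of CG1116. Both ranked better in replicate 3 (2020 and 2479) than in the other libraries. Rpt6R (FBgn0039788) had 137 and 154 in replicates 1 and 2, and in the pool Rpt6 had 1364 and Rpt6R 428. Replicate 3 had no summit within 200 bp of the Rpt6R summit, even in its relaxed list. The strongest peak of that relaxed list within 500 bp of the start site of Rpt6R had a signal of 33.8. Counting peaks matched in both remaining libraries left 2 paralogs when replicate 1 was left out, 2 when replicate 2 was, and 3 when replicate 3 was. No share over all protein-coding genes was computed for these counts. Rpt6R was the 1 paralog whose peak had no other gene's start site within 500 bp, with its summit 54 bp upstream.

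Apart from Prosalpha1R, the proteins of the paralogs were 37.5% (Rpn13R) to 88.9% (Rpt6R) identical to their counterparts. The 3 closest after Prosalpha1R were Rpt6R (88.9%), Rpt3R (82%) and Rpt4R (81.9%), of which Rpt6R and Rpt3R had a promoter peak and Rpt4R none, while Prosbeta2R2, with a peak, was 43.3% identical to Prosbeta2. The gene models of 11 paralogs had fewer exons than the counterpart's and 5 had as many.

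Motif matches were counted on both strands within 100 bp of the strongest summit. The DRE (TATCGATA) is the site of the transcription factor DREF. It was found at 10 of 31 subunit peaks (32.3%) and at 14.4% of the 5150 separate peaks of all protein-coding genes. Of the peaks of the other ubiquitin-proteasome genes named further on, 7 of 31 had a DRE (22.6%). The core of the DRE, CGATA, which every DRE contains and which BEAF-32 binds, was found at 22 subunit peaks (71%), 21 other pathway peaks (67.7%) and 51.1% of all. The core of Motif 1, the M1BP site of housekeeping promoters (GGTCACACT), was at 6 subunit peaks (19.4%), 7 other pathway peaks (22.6%) and 11% of all. In windows 1000 bp to the left or right of the subunit peaks the DRE was found 0 times. The median GC content was 36.3% at the subunit summits and 46.8% and 54.2% in those flanking windows, and it was 38.8% at all promoter peaks. Counted from 250 bp before to 50 bp after the gene start, the DRE was found at 12 of 32 subunit genes (37.5%), 0 of 16 paralogs and 9.37% of all protein-coding genes.

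The 7 DRE matches at subunit peaks on the arms 2L, 3L, 3R and X are shown because the DRE had the largest share among the longer motifs, a choice made after the values were seen, as for the next motif. Each line has 10 bases to either side on the gene's strand, with the motif in capitals.
Prosalpha6 (chr2L:10221325-10221352): ccgaatccctTATCGATAcccgatacac
Prosbeta2 (chr3L:14999681-14999708): ggaaacagtaTATCGATAtttttcaaac
Prosbeta6 (chr3L:16610445-16610472): tatgtataccTATCGATAacgtttaagc
Rpt3 (chrX:11124749-11124776): gtactcgaacTATCGATAgttgcgtctc
Rpt5 (chr3R:23752820-23752847): tcgctgtcacTATCGATAagcgccggcg
Rpn3 (chr2L:19051856-19051883): ccgtaaaacgTATCGATAaattgaaacg
Rpn7 (chr3R:22462034-22462061): cggtataattTATCGATAattttggggt
Over all 10 subunit genes with a DRE the motif's centre lay a median of 38.5 bp from the summit and 51.5 bp upstream of the start site (-51.5 bp, range -339 to 7). At Prosbeta2 it lay 20 bp from the summit, at -257 bp from the gene's start site. At Rpt3 it lay 97 bp from the summit, at the edge of the window searched, at -339 bp. The strongest subunit peak with a DRE was Prosbeta1, and Rpn3, also with a DRE, had the lowest peak but that of Prosbeta4.

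The antioxidant response element (TGACNNNGC), bound by Cnc with its small Maf partner and known from mammals as the site through which Nrf1 raises proteasome genes when the protease is inhibited, was found at 5 of 31 subunit peaks (16.1%), 1 of 31 peaks of the other pathway genes (3.23%) and 6.89% of all promoter peaks. The count depended on the window. Within 50 bp of the summit the element was at 0 of 31 subunit peaks, 1 of 31 other pathway peaks and 4.62% of all. Within 200 bp it was at 7 subunit peaks (22.6%) and 12% of all, and also at 7 of the 31 windows placed 1000 bp to the left of the subunit peaks and at 4 of those to the right. In 100 bp windows those flanks held 1 and 2. The matches within 100 bp are shown on the strand that reads the motif forward.
Prosalpha2 (chr3R:12431348-12431376, minus strand): gaaacaaaaaTGACACAGCaattgggcgg
Prosbeta3 (chr3R:9006428-9006456, plus strand): gctttcagtgTGACCAGGCcgcgtcaatc
Prosbeta7 (chr3R:5358249-5358277, minus strand): taaaacggtgTGACCAAGCtaatagtgga
Rpt6 (chrX:21316068-21316096, minus strand): ctttattgtaTGACTCTGCatttgctttt
Rpn1 (chr3L:19915036-19915064, minus strand): ttttgcagtgTGACCGCGCggcgaacgcc
At Prosbeta3 a second match on the other strand overlapped the one shown. The matches shown for Prosbeta3 and Rpn1 also share bases with a Motif 1 match on the opposite strand, which is counted above on its own. The yeast control element of proteasome genes (GGTGGCAAA) was found at 0 of 31 subunit peaks and 0.311% of all. The remaining motifs were CAGCTG, plotted as Ohler 5 (2 of 31 subunit peaks, 19.8% of all), GAGAG (3, 21.2%), the TATA box TATAAA (6, 27.6%), the E-box CACGTG (0, 3.44%) and the Zelda site CAGGTAG (0, 0.777%). These matches are descriptions of the letters in the windows, and no binding of the named factors was measured.

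**Figure D5:**
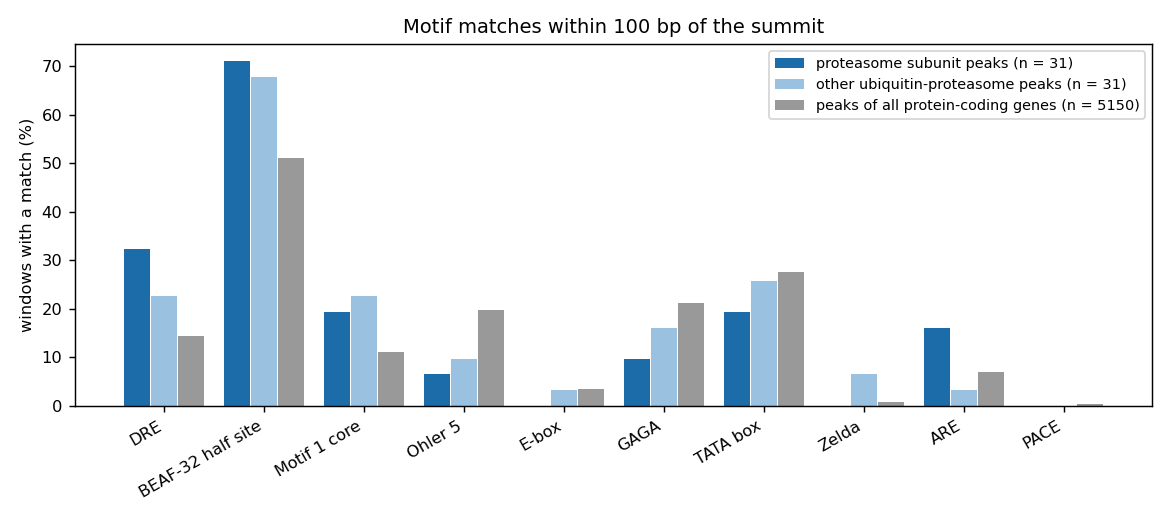
Share of windows (vertical axis, %) with a match to each of 10 motifs within 100 bp of the summit, for 31 proteasome subunit peaks, 31 peaks of other ubiquitin-proteasome genes and 5150 promoter peaks of all protein-coding genes. The DRE reaches 32.3, 22.6 and 14.4% in these groups and the antioxidant response element (ARE) 16.1, 3.23 and 6.89%.

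Other genes of the ubiquitin-proteasome pathway also carried promoter peaks. In a list of 31 genes for ubiquitin, its activation and ligases, shuttle receptors, the p97 segregase and its cofactors, and proteasome assembly and regulation, 31 of 31 had one, with a median signal of 1075 (range 229 to 2476). The share over all protein-coding genes was 50.3%, with a median signal of 834 among those with a promoter peak. The strongest were TER94 (2476), the p97 segregase, Uch-L5 (2280), a deubiquitinase of the cap, Rad23 (2147), a shuttle receptor, and Ufd1-like (2075), a p97 cofactor. Of further genes, picked after their values were seen, Pomp, the assembly factor of the core, had 516, 545 and 564 in replicates 1, 2 and 3 and 1618 in the pool. Sem1, a small subunit of the cap that the symbol rule does not take in, had 194, 260 and 276 and 732 in the pool. REG, an activator that can cap the core in place of the 19S particle, was lowest of the list with 42.9, 61.1 and 102 and 229 in the pool. The transcription factor cnc had 216, 322 and 553, and 1075 in the pool. The list was drawn up from well studied genes, and its count says nothing of genes outside it.

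Set beside the 31 of 32 subunit genes with their median of 1302 were other large housekeeping complexes. There, 82 of 86 cytosolic ribosomal protein genes had a promoter peak, with a median signal of 1104, and 73 of 73 mitochondrial ribosomal protein genes, with a median of 898. Over all protein-coding genes the share was 50.3%, with a median of 834 among those with a promoter peak. The ribosomal lists kept symbols with a suffix, while the paralogs of the proteasome were kept apart, so these counts follow unlike rules. No test was made between these lists, so the proteasome is not set apart from them here.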

How the data were processed

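E(bx) binding was measured by chromatin immunoprecipitation with sequencing in 3 replicates of 1 group; sonicated fragments were 200 to 800 bp long, per the labels. The dm6 lists deposited by the authors were used: a relaxed list per replicate, a relaxed list of the pooled replicates and the optimal IDR set derived from all of them, per the deposited file records. The sources used here name no aligner, caller, settings or IDR threshold. The dm3 lists were not used. The deposited signal value (column 7) has no stated scale; the deposited −log10 q-value (column 9) was 4.39 for every IDR peak and was not used to rank.

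Gene models were Ensembl release 115, and sequences came from the RefSeq Release 6 genome, whose arms reach past every peak. Summits were the deposited start plus offset, counted from 1. Replicates were compared through their best 9708 peaks, matched within 200 bp. Proteins were translated from the longest coding sequence and aligned with Biopython 1.88 (BLOSUM62, identity over aligned residues). Repeats were exact 32-base words on either strand of the 6 arms. The assignment of summits and the motif search were tested on simulated data. Members, lists and motifs were chosen with earlier results of these data known, so no set was tested; counts stand beside all protein-coding genes. All members of the subunit and paralog lists are named, and of the other pathway genes the 4 strongest, any without a peak, and genes singled out after their values were seen (Pomp, Sem1, REG and cnc). In that list 1 of 31 symbols (Ufd1-like) was matched through RefSeq synonyms and 0 were unmatched.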

Additional observations from a re-analysis of the deposited data

How the results depend on the processing

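With TSS windows of 250 or 1000 bp, 31 subunit genes and 3 paralogs had a promoter peak; of the other pathway genes Uba1 and Ubi-p63E dropped out at 250 bp. With 1 replicate left out and peaks required in the remaining libraries, 31 subunit genes were found each time and 2 to 3 paralogs. All 31 subunit peaks were matched in all 3 libraries, and their values come from the reproducible set. Leaving out a replicate therefore could not move their median signal (1302), position (-52 bp), rank percentile (11.4) or DRE count (10). It says nothing of the stability of these. The gene's first start site alone gave 30 subunit genes. With lists cut to 4854 peaks per replicate, 26 subunit peaks were matched in all 3. For the counts of genes and matched peaks so far in this paragraph, no share over all protein-coding genes was computed. The DRE count was 7 within 50 bp of the summit (22.6%, against 10.6% of all promoter peaks). Within 200 bp it was 12 (38.7%, against 17.3%). The values that moved by more than 1 SD of the replicates' own values were the median position and the median rank percentile. The median position was -32 bp with the nearest summit. The median rank percentile was 11.4 in the IDR set, below the 11.8, 13.6 and 15.7 of replicates 1, 2 and 3. These replicate values also set the SD (1.95), so the label says nothing of the stability of the rank percentile. The cause was not tested. No paired analysis was possible because the study has 1 group. Depth and control are unknown here, so a missing peak and low coverage cannot be told apart.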
